A study of Mus musculus with 54 samples.

Results

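Aldosterone-regulated sodium transport was followed through 7 of the 33126 genes listed in the deposited tables, across the nephron segments and the sample preparation protocols of a mouse kidney series. They were listed by name, with earlier results of these data known. Scnn1a, Scnn1b and Scnn1g encode the alpha, beta and gamma subunits of the epithelial sodium channel ENaC. Nr3c2 encodes the mineralocorticoid receptor, Hsd11b2 the enzyme that inactivates glucocorticoids in cells with that receptor, Sgk1 a kinase induced by corticosteroids, and Nedd4l the ubiquitin ligase that removes ENaC from the membrane.

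The series held 39 10x libraries of cells or nuclei and 15 bulk RNA-seq libraries, in 18 groups of 3. Kidneys of male C57BL/6J mice aged 19 weeks (named AFAPIL.1DEL in the study's methods, all of 1 litter) were dissociated warm, with a commercial enzyme kit, or on ice, with a cold-active protease of Bacillus licheniformis. These suspensions were sequenced as bulk RNA, as fresh cells, after 6 weeks of cryopreservation and after 3 months in methanol. Balb/c males aged 18 weeks gave fresh cold-dissociated cells, nuclei labelled 3x500g and intact-kidney bulk RNA. Balb/c females aged 15 weeks, former breeders, gave fresh and cryopreserved (2 weeks) cold-dissociated cells, bulk RNA of the cold suspension and of intact kidney, and nuclei of frozen kidneys prepared in 3 ways. The nuclei labelled 3x500g were washed 3 times at 500 g and sorted, those labelled 1x2000g were washed once at 2000 g and sorted, and the sucrose nuclei were passed through a cushion without sorting. The labels name no hormone or diet treatment. Strain, sex, age, 10x chemistry (version 2 in males, version 3 in females) and bulk library kit differed between the cohorts, and levels are therefore compared within a cohort.

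Aldosterone acts in the last part of the nephron, from the late distal convoluted tubule (DCT) through the connecting tubule (CNT) to the principal cells of the collecting duct. There it binds the mineralocorticoid receptor and raises Sgk1 and the alpha subunit, and SGK1 phosphorylates the NEDD4L protein so that less ENaC is taken from the membrane. Intercalated cells of type A and type B lie between the principal cells and secrete acid or base.

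On the GRCm38.p6 assembly, RefSeq places Scnn1a at chr6:125314271-125344943, Scnn1g at chr7:121734420-121768482 and Scnn1b at chr7:121865038-121918728. Nr3c2 lies at chr8:76898083-77245012, Hsd11b2 at chr8:105518746-105523988 and Sgk1 at chr10:21882184-21999903. Scnn1g and Scnn1b are therefore neighbours on chromosome 7. The spans run from 5243 bases for Hsd11b2 through 30673 for Scnn1a, 34063 for Scnn1g, 53691 for Scnn1b and 117720 for Sgk1 to 333347 for Nedd4l and 346930 for Nr3c2.

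RefSeq promoter windows of 300 bases (250 before to 50 after a start, GRCm38.p6) were at hand for 9 starts of 4 of the genes, 6 of them of Sgk1. The palindrome AGAACA, any 3 bases and TGTTCT, searched on both strands and the response element that mineralocorticoid and glucocorticoid receptors share, was present in 1 of the 6 Sgk1 windows and in 3 of all 32851 windows (0.00913%). The single site AGAACA, read on both strands and also contained in the palindrome, was present in 3 of the 6 Sgk1 windows, in 19% of all windows, and in none of the windows of Scnn1b, Scnn1g and Nr3c2. The Sgk1 window with the palindrome (chr10:21993640-21993939, plus strand) is shown because Sgk1 was also followed as a gene that may respond to dissociation, and those of Scnn1b (chr7:121864788-121865087) and Scnn1g (chr7:121734229-121734528, both plus strand) because these neighbours had nearly the same pattern over classes. Capitals mark the palindrome, which starts 189 bases before the start of transcription. A match is a match of letters only.
Sgk1: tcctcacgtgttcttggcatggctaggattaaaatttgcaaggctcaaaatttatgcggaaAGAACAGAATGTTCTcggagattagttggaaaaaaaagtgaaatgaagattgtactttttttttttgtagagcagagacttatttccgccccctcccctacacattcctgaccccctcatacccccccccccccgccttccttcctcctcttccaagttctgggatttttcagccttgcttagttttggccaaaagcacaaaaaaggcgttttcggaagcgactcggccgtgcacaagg
Scnn1b: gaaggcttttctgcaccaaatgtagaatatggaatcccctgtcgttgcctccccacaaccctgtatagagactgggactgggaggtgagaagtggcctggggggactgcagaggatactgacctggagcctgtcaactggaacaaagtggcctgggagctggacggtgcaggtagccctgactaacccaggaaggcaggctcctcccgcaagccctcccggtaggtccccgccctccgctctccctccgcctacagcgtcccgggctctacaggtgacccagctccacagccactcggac
Scnn1g: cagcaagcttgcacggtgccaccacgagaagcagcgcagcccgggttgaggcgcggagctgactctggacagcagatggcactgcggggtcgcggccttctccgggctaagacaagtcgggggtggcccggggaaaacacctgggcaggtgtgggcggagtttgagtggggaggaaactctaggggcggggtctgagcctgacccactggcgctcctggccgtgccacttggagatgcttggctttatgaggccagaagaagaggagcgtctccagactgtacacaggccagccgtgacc

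In the 10x libraries each captured molecule is counted once by its unique molecular identifier (UMI), and the deposited tables held 782 to 9308 barcodes and 983522 to 35170947 UMIs per library, with a median of 343 to 3893.5 UMIs per barcode. The bulk libraries held 2326998 to 31093949 reads. Barcodes were clustered without the 7 genes and named from marker genes, and the classes are called principal cell-like, CNT-like and so on. Libraries shared at most 2.05% of the barcodes of the smaller library. Clusters without a name took 0 to 40.0% of the barcodes of a clustering set, the most in male nuclei. Levels are given in CPM, a gene's share of all UMIs of a class in a library. Tests compared libraries of 2 protocols within a class with edgeR's quasi-likelihood test, and p-values were adjusted by Benjamini-Hochberg over all genes tested in the class. The study states that its experiments were done in triplicate, with kidneys of 3 different mice. The labels tie no library to a given animal, and these p-values measure the spread between the libraries of a group. Replicate numbers follow the order of deposit and only name a library, so whether equal numbers in different groups mark a shared animal or suspension is not known.

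In fresh cold-dissociated C57BL/6J cells, Hsd11b2, Scnn1b and Scnn1g were led by the principal cell-like barcodes. Hsd11b2 stood at 3508, 3225 and 1854 CPM in the 3 principal cell-like libraries (mean 2862 ± 884, SD, n = 3) and at 349, 654 and 369 CPM in the CNT-like libraries (457 ± 171). Scnn1b stood at 605, 450 and 283 CPM in principal cell-like barcodes (446 ± 161) against 126 ± 33.8 CPM in CNT-like barcodes, and Scnn1g at 230, 241 and 181 CPM (217 ± 32.0) against 91.8 ± 21.6. For these 3 genes the principal cell-like libraries did not overlap the next class. Replicate 3 was the lowest of the 3 for each of them. Classes were drawn from the same cells, so the order of classes is a description without a test.

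Scnn1a was spread over more of the distal nephron. It stood at 205 ± 36.0 CPM in principal cell-like, 166 ± 34.3 in type A-like, 130 ± 45.3 in type B-like, 128 ± 19.2 in CNT-like and 126 ± 22.8 in DCT-like barcodes of the C57BL/6J cells, and each neighbour in this order overlapped the next. Thick ascending limb-like barcodes held 82.9 ± 21.6 CPM of Scnn1a. Scnn1b was at 4.52 CPM in the DCT-like barcodes, where Scnn1a alone of the 3 subunits was well measured. In the larger Balb/c female libraries, principal cell-like barcodes led for Scnn1a as well, at 338, 289 and 427 CPM (351 ± 69.8), without overlap with the DCT-like barcodes at 189 ± 12.9 CPM.

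Nr3c2 was sparse in cells. Its mean was 24.0 ± 15.9 CPM in principal cell-like, 20.9 ± 9.59 in CNT-like, 20.2 ± 19.8 in DCT-like and 18.9 CPM in type B-like barcodes of the C57BL/6J cells, from 15, 12, 13 and 7 UMIs, and these 4 classes could not be put in order. In Balb/c female cells the principal cell-like level was 56.99 ± 8.22 CPM, above the 28.6 CPM of type A-like barcodes without overlap. In Balb/c male cells the order was the reverse, with 87.3 ± 21.1 CPM in type A-like and 46.5 ± 16.1 in principal cell-like barcodes, from 21 and 14 UMIs and also without overlap. Nedd4l had its highest mean in type A-like barcodes of the fresh cold-dissociated cells. In the C57BL/6J cells it stood at 87.3 ± 23.0 CPM in type A-like, 77.5 ± 25.9 in principal cell-like and 74.5 ± 23.4 in type B-like barcodes, which overlapped, and in Balb/c female cells at 150 ± 15.1 CPM in type A-like and 127 ± 8.36 in type B-like against 68.9 ± 9.10 in principal cell-like barcodes.

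Sgk1 was highest outside the tubule. Endothelial cell-like barcodes held 997, 619 and 524 CPM in the C57BL/6J cells (714 ± 250), and principal cell-like barcodes 135, 89.9 and 543 CPM (256 ± 250). The principal cell-like libraries were spread over a wide range and overlapped the endothelial ones, with replicate 3 far above the others. In the Balb/c female cells the order of the means was the same, with 483 ± 106 CPM in endothelial cell-like and 255 ± 190 in principal cell-like barcodes. CNT-like barcodes followed at 95.5 ± 59.7 CPM, and each of these classes overlapped the next. In 3x500g nuclei, urothelial-like (232 ± 105 CPM), endothelial cell-like (178 ± 36.3) and principal cell-like nuclei (178 ± 90.2) did not differ beyond their spread.

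**Figure D1:**
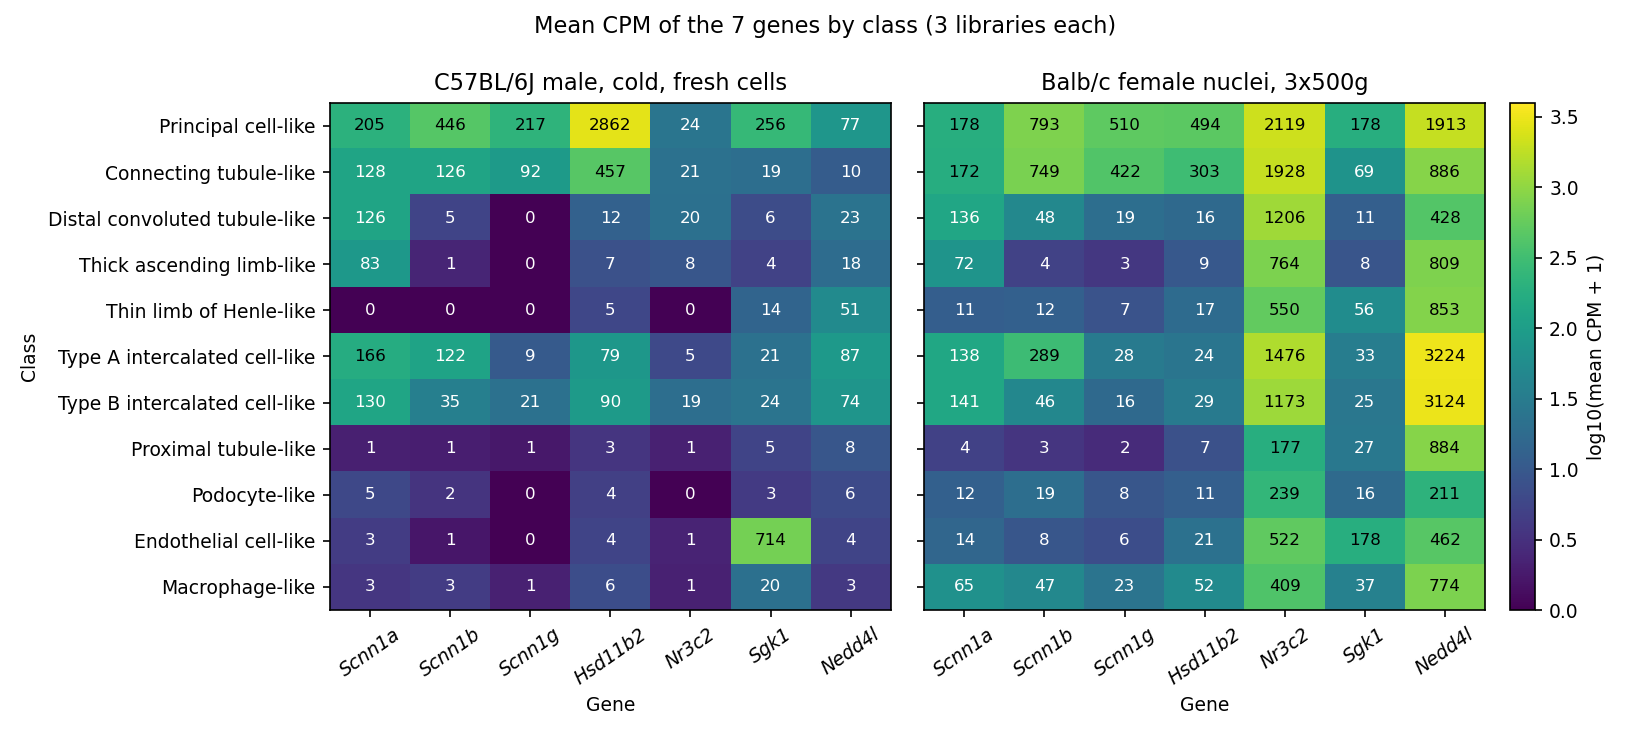
Mean CPM of the 7 genes (columns) by class (rows), over 3 libraries each, in fresh cold-dissociated C57BL/6J cells (left) and Balb/c female 3x500g nuclei (right), with color on a log10 scale and the mean printed in each cell. Hsd11b2 is the highest value of the cells (2862 in principal cell-like barcodes). Among the nuclei, Nedd4l (3224 in type A-like) and Nr3c2 (2119 in principal cell-like) are high. The panels come from different cohorts, so levels are not compared between them.

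Over the 13 10x groups, the class with the highest mean was principal cell-like for Hsd11b2 in 12 groups, for Scnn1b in 11, for Scnn1g in 10, for Nr3c2 in 8 and for Scnn1a in 6. CNT-like barcodes led in the other groups for Hsd11b2, Scnn1b and Scnn1g. Among these were the methanol-fixed warm-dissociated cells, in which the principal cell-like and type A-like classes were not ranked. For Hsd11b2 this was the only such group. Nedd4l was led by type A-like barcodes in 8 groups, type B-like barcodes in 4 and principal cell-like barcodes in 1, and Sgk1 by endothelial cell-like barcodes in 11 groups and urothelial-like barcodes in 2. These counts use the means alone, and many leading classes overlapped the next. In methanol-fixed warm-dissociated cells, type B-like barcodes led for Nr3c2 with 2 UMIs. Some groups are stored aliquots of suspensions, so the groups are not independent. In Balb/c female cells the principal cell-like libraries lay above the CNT-like ones without overlap for Scnn1b (434 ± 81.4 against 235 ± 44.5 CPM), Scnn1g (280 ± 12.6 against 157 ± 9.81) and Nr3c2 (56.99 ± 8.22 against 24.0 ± 1.85). The 3x500g nuclei of the same cohort held 793 ± 106 against 749 ± 15.7 CPM of Scnn1b, 510 ± 105 against 422 ± 100 of Scnn1g and 2119 ± 80.2 against 1928 ± 125 of Nr3c2, each with overlapping libraries, while Hsd11b2 (494 ± 108 against 303 ± 31.5) did not overlap. In Balb/c male cells the classes already overlapped for Scnn1b (551 ± 105 against 417 ± 81.9), Scnn1g (236 ± 38.8 against 257 ± 23.3) and Nr3c2 (46.5 ± 16.1 against 34.7 ± 18.1).

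The share of each subunit among the ENaC UMIs was followed beside the levels. In the C57BL/6J cells Scnn1a took 24.1% ± 3.52 (SD, n = 3) of the ENaC UMIs in principal cell-like barcodes, with 50.3% ± 6.09 for Scnn1b and 25.6% ± 3.78 for Scnn1g. It took 37.5% ± 7.38 in CNT-like barcodes, without overlap with the principal cell-like libraries, 55.7% ± 8.25 in type A-like, 74.6% ± 18.4 in type B-like and 96.9% ± 2.95 in DCT-like barcodes. Type A-like and type B-like libraries overlapped in these cells (48.2 to 64.5% and 54.2 to 90.0%). By their means the Balb/c female cells had the same order of the intercalated and DCT-like classes. Scnn1a took 47.8% ± 2.36 in type A-like, 87.4% ± 3.29 in type B-like and 90.6% ± 2.79 in DCT-like barcodes. In thick ascending limb-like barcodes it took 94.6% ± 4.05, and the type B-like, DCT-like and thick ascending limb-like libraries overlapped. The shares in principal cell-like (32.8% ± 1.70) and CNT-like barcodes (31.5% ± 3.62) overlapped as well.

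In nuclei of the Balb/c females the alpha share was lower than in cells in most classes of the distal nephron. It was 12.0% ± 1.65 in principal cell-like, 12.8% ± 0.56 in CNT-like, 30.4% ± 2.07 in type A-like, 69.4% ± 8.97 in type B-like and 67.8% ± 7.53 in DCT-like 3x500g nuclei, and the libraries of these classes did not overlap those of the Balb/c female cells. In thick ascending limb-like nuclei it was 91.3% ± 2.43, which overlapped the cells. Male Balb/c principal cell-like barcodes had 20.9% ± 5.42 in cells and 12.8% ± 1.90 in nuclei, without overlap, while male type B-like barcodes overlapped, at 70.0 to 78.0% in 2 libraries of cells and 58.3 to 80.8% in nuclei. UMIs count molecules and were not divided by gene length, and nuclear UMIs include intron reads, so a share in nuclei is not a share of mature transcripts.

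**Figure D2:**
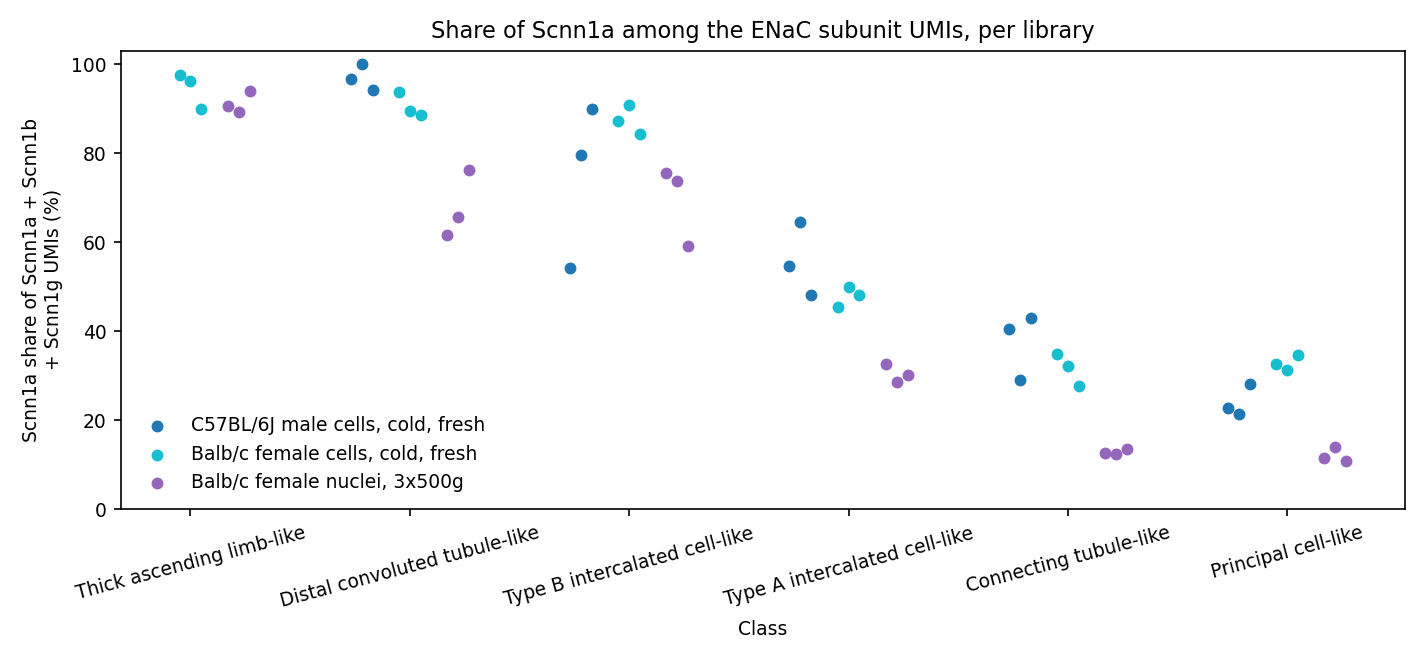
Percent of the Scnn1a, Scnn1b and Scnn1g UMIs that were Scnn1a, by class, with 1 point per library, in C57BL/6J male cells, Balb/c female cells and Balb/c female 3x500g nuclei. The DCT-like and thick ascending limb-like points lie above 60%, and the principal cell-like nuclei lie at 12.0% on average.

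Bulk RNA-seq asked what warm dissociation does to the whole suspension, and all 7 genes were higher in the warm suspensions than in the cold ones without overlap of the libraries. Of these 7, 5 passed the test, against 5.57% of all 14102 genes called higher and 3.55% called lower. In the cold suspensions Scnn1a stood at 94.3, 94.2 and 85.9 CPM of the reads and in the warm suspensions at 151, 152 and 182 CPM, a log2 fold change of 0.80 ± 0.08 (SE, adjusted p = 1.06e-05). Scnn1g rose from 38.4, 40.4 and 26.8 to 86.7, 82.3 and 125 CPM (1.45 ± 0.22, adjusted p = 0.0154). Nr3c2 rose from 45.2, 47.2 and 30.0 to 67.2, 70.5 and 79.8 CPM (0.80 ± 0.14, adjusted p = 0.00659). In each of these genes the lowest warm library was above the highest cold library, and cold replicate 3 was the lowest of all.

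Sgk1 and Nedd4l changed less, with tighter replicates. Sgk1 stood at 69.03, 75.7 and 72.3 CPM in the cold and 107, 92.8 and 95.0 CPM in the warm suspensions (0.42 ± 0.08, adjusted p = 0.00285). Nedd4l stood at 104, 90.8 and 98.8 CPM against 121, 132 and 135 CPM (0.37 ± 0.07, adjusted p = 0.00454). Scnn1b (44.1, 46.2 and 23.8 against 90.1, 78.7 and 111 CPM, 1.27 ± 0.27, adjusted p = 0.0560) and Hsd11b2 (125, 130 and 64.6 against 247, 222 and 299 CPM, 1.24 ± 0.30, adjusted p = 0.0902) had larger fold changes but did not pass the test. Replicate 3 of the cold group was well below the other cold libraries for both. Without replicate 1 of the cold group, Scnn1g was no longer called (1.51, adjusted p = 0.0621).

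Many markers of the distal nephron were higher in the warm suspensions as well, and those of endothelial cells, which held the most Sgk1, were not. Of the CNT markers 5 of 6 tested were higher (median log2 fold change 0.85), as were 4 of 9 principal cell markers (0.88), 8 of 10 type A markers (0.92) and 8 of 9 type B markers (0.91), while the median over all genes was −0.01. Of the endothelial markers 0 of 11 were higher and 2 lower (−0.15), beside the higher Sgk1, and of the proximal tubule markers 5 of 14 were lower (−0.19). In bulk samples fewer cells of a type and less RNA per cell cannot be told apart. The immediate-early gene Fos was higher by 7.53 ± 0.29 and the phosphatase gene Dusp1 by 3.05 ± 0.11 on the log2 scale, and both belong to a set that the study chose as induced in warm-dissociated samples of this series.

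Intact kidney and cold suspension of the Balb/c females gave the reverse for the channel genes. Scnn1a, Scnn1b, Scnn1g and Hsd11b2 were lower in intact kidney, 4 of 7 genes, against 12.1% of 16538 genes called higher and 7.99% called lower. Hsd11b2 stood at 513, 421 and 410 CPM in the suspensions and at 252, 276 and 308 CPM in intact kidney (−0.68 ± 0.09, adjusted p = 0.000956). Scnn1b stood at 138, 101 and 99.3 against 66.0, 61.7 and 66.0 CPM (−0.79 ± 0.13, adjusted p = 0.00612), Scnn1g at 117, 96.9 and 90.6 against 59.5, 65.9 and 67.2 CPM (−0.65 ± 0.09, adjusted p = 0.000854), and Scnn1a at 275, 242 and 216 against 169, 181 and 191 CPM (−0.43 ± 0.08, adjusted p = 0.00408). The suspension libraries lay above the intact libraries in all 4 genes.

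Nr3c2 (−0.24 ± 0.08, adjusted p = 0.0526) and Nedd4l (0.15 ± 0.06, adjusted p = 0.126) did not pass the test. Sgk1 stood at 70.6, 53.1 and 91.4 CPM in the suspensions and 70.4, 73.6 and 132 CPM in intact kidney (0.36 ± 0.35, adjusted p = 0.557), with overlapping groups and 1 library of each group above its others. CNT markers were lower in intact kidney in 6 of 7 (median −0.57), principal cell markers had a median of −0.11 with 2 of 9 higher, and 0 of 10 type A markers were called. Of the endothelial markers 9 of 11 were higher in intact kidney, and of the fibroblast markers 6 of 7. In the intact kidneys of the Balb/c males, sequenced with another kit and not tested against females, Hsd11b2 stood at 92.1, 140 and 106 CPM, Scnn1a at 101, 64.0 and 89.0, and Sgk1 at 42.5, 37.4 and 57.1 CPM. Per kilobase of exon, with all annotated exons of a gene counted as its length, Hsd11b2 had the highest mean of the 7 in intact female kidney (151 RPKM), followed by Scnn1a (43.6), Scnn1b (24.5), Scnn1g (21.5), Sgk1 (18.7), Nedd4l (7.83) and Nr3c2 (5.98). The Sgk1 libraries stood at 14.4, 15.0 and 26.8 RPKM and overlapped those of Scnn1b and Scnn1g, so Sgk1 could not be ordered against them.

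**Figure D3:**
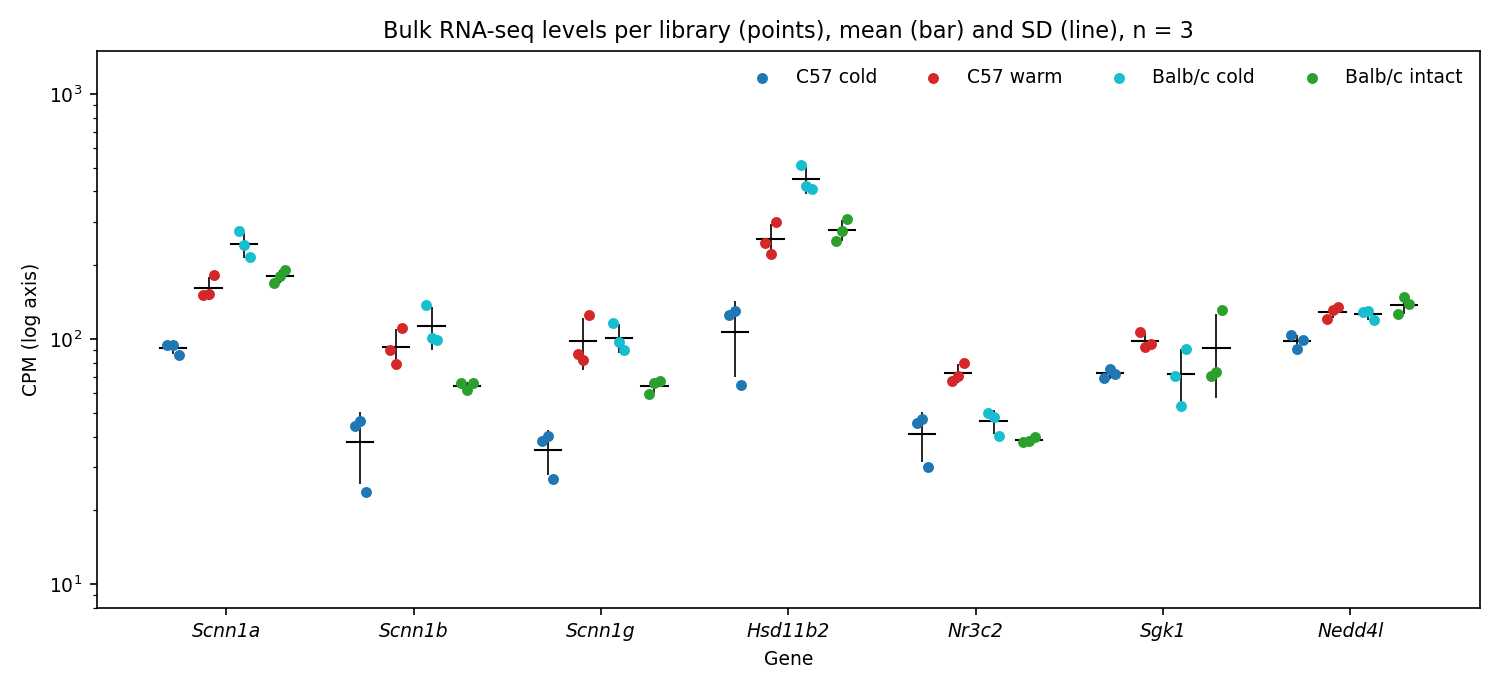
Bulk CPM of each gene (log axis) in the C57BL/6J cold and warm suspensions and the Balb/c female cold suspension and intact kidney, with 1 point per library, the mean as a bar and the SD as a line, n = 3. The warm suspensions lie above the cold ones for all 7 genes, and the Balb/c female suspension lies above intact kidney for Scnn1a, Scnn1b, Scnn1g and Hsd11b2.

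Within fresh cells most pairs of a gene and a class had too few counts for a test, 72 of 91. Of the other 19 pairs 2 were called (10.5%), both higher in warm-dissociated cells, against 2.6% of 31567 pairs over all genes called higher and 1.67% called lower. Nr3c2 could be tested in none of the 13 classes. Scnn1a in principal cell-like barcodes stood at 247, 188 and 181 CPM in cold and at 404, 385 and 343 CPM in warm libraries (0.89 ± 0.22, adjusted p = 0.0117). The warm libraries lay above the cold ones, but the call rested on 122 UMIs in the cold group and was lost without cold replicate 2 (0.82, adjusted p = 0.124) or warm replicate 2 (0.74, adjusted p = 0.220). It was also lost by the Wald test of DESeq2 (0.89, adjusted p = 0.0511) and by edgeR without the filter on low counts (0.80, adjusted p = 0.0681). Scnn1b (528 ± 7.98 against 446 ± 161 CPM, 0.25 ± 0.19, adjusted p = 0.614), Scnn1g (280 ± 25.9 against 217 ± 32.0, 0.34 ± 0.23, adjusted p = 0.572) and Hsd11b2 (3531 ± 408 against 2862 ± 884, 0.29 ± 0.19, adjusted p = 0.529) did not pass the test in the same class. Markers of CNT cells, 6 of 6 with a UMI, summed to 11780 to 23750 CPM in the cold and 20520 to 38520 CPM in the warm principal cell-like libraries, and their part in the Scnn1a difference was not tested. The alpha share of ENaC UMIs was 21.4 to 28.1% in the cold and 29.9 to 33.0% in the warm principal cell-like libraries.

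In the CNT-like class, Hsd11b2 stood at 304, 273 and 237 CPM in the warm against 349, 654 and 369 CPM in the cold libraries, without overlap and without a call (−0.81 ± 0.21, adjusted p = 0.103). The bulk differences of Hsd11b2 and Scnn1b, both over 1 on the log2 scale, had no counterpart of that size in the CPM of these classes. The share of principal cell-like barcodes was 1.52 to 2.62% in the cold and 0.954 to 1.09% in the warm libraries, and that of CNT-like barcodes 2.12 to 2.48% and 2.61 to 3.15%.

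Sgk1 is also known as an early response gene, and it was called higher in 1 of 3 classes tested. In proximal tubule-like barcodes it stood at 3.63, 3.14 and 6.90 CPM in the cold and at 16.1, 29.4 and 13.5 CPM in the warm libraries (2.09 ± 0.41, adjusted p = 0.0234). The warm libraries lay above the cold ones, from a low level: 0.72 to 1.11% of cold and 2.07 to 4.69% of warm proximal tubule-like barcodes had an Sgk1 UMI. The call was lost without cold replicate 1 (1.95, adjusted p = 0.0730) or cold replicate 2 (1.86, adjusted p = 0.103). Endothelial markers, 11 of 11 with a UMI, summed to 27.1 to 32.7 CPM in the cold and 15.9 to 19.9 CPM in the warm proximal tubule-like libraries, and the part of endothelial RNA in the Sgk1 difference was not tested. In the classes with the most Sgk1 the protocols overlapped. Principal cell-like libraries stood at 391, 131 and 107 CPM warm against 135, 89.9 and 543 CPM cold (−0.44 ± 1.01, adjusted p = 0.893), and endothelial cell-like libraries at 888, 524 and 621 against 997, 619 and 524 CPM (−0.15 ± 0.18, adjusted p = 0.830).

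Fos and Dusp1, 2 of the 17 stress genes, were called higher in these same 3 classes. The study picked those 17 genes among the ones induced by warm dissociation in these same samples, so their rise was fixed by the choice and is a description, not independent evidence. Dusp1 was higher by 5.28 ± 0.47 in principal cell-like, 3.28 ± 0.33 in proximal tubule-like and 1.82 ± 0.17 in endothelial cell-like barcodes on the log2 scale. The summed level of the 17 stress genes was 2421 to 2564 CPM in cold and 10380 to 17580 CPM in warm principal cell-like libraries, and 117 of 168 pairs of these genes and a class were called higher and 1 lower (median 3.35). In a joint fit over 12 classes with the library as a block, the warm against cold difference of Sgk1 in the proximal tubule-like class exceeded that in the principal cell-like class by 2.46 ± 0.55 (edgeR's quasi-likelihood test, adjusted p = 0.0181). Of the 11 classes set against the principal cell-like class, 1 was called for Sgk1, against 0.134% of all 61831 gene and class pairs. The call was lost in 4 of the 6 fits that left out 1 library, and without warm replicate 2 the difference fell to 1.68 (adjusted p = 0.720). Sgk1 had a single estimate of spread for all 12 classes in the joint fit. The p-value therefore does not measure the spread of the principal cell-like class by itself. The endothelial cell-like difference was 0.21 ± 0.50 (adjusted p = 1), the type B-like 2.02 ± 0.95 (adjusted p = 1) and the macrophage-like 1.63 ± 0.80 (adjusted p = 0.861).

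**Figure D4:**
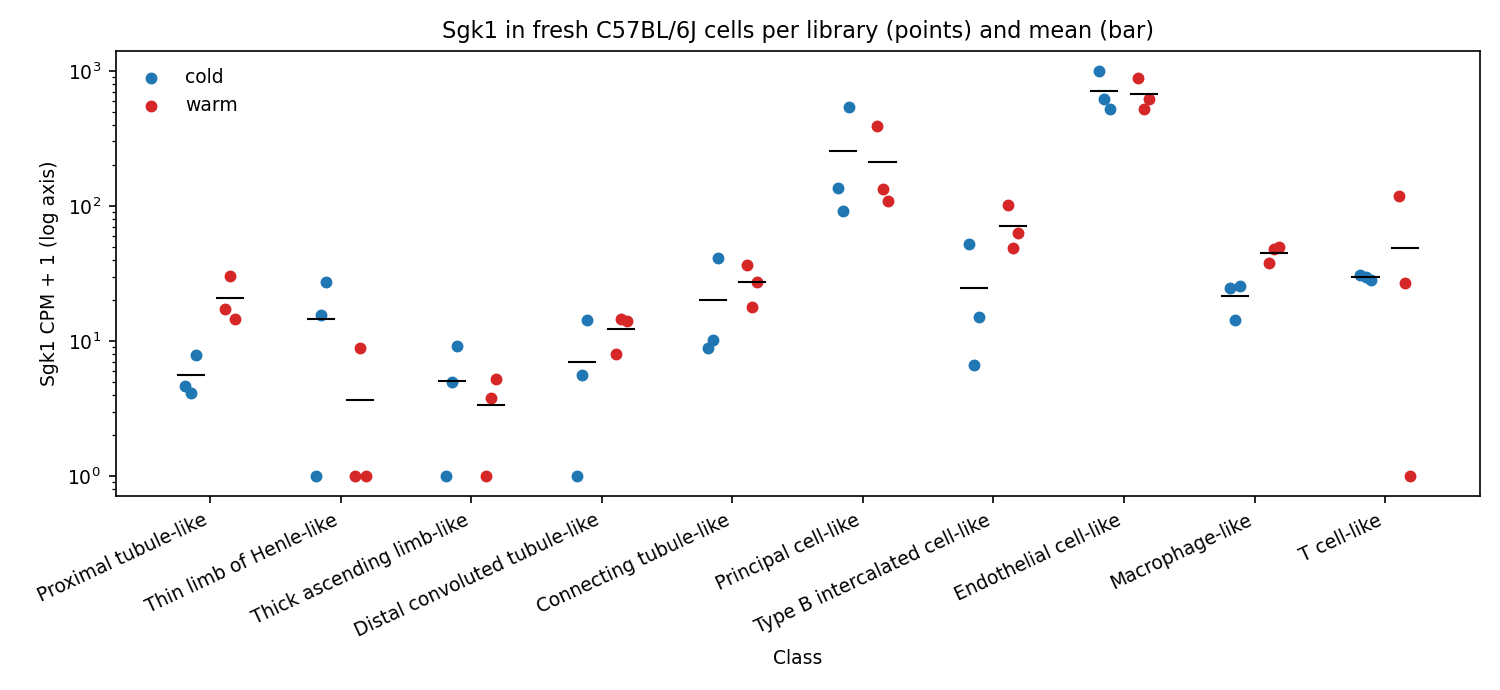
Sgk1 CPM plus 1 (log axis) per library (points) with the mean (bar), by class, in fresh cold- and warm-dissociated C57BL/6J cells, n = 3 each. The proximal tubule-like warm points lie above the cold ones (16.1, 29.4 and 13.5 against 3.63, 3.14 and 6.90 CPM), and the principal cell-like and endothelial cell-like points overlap.

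Cryopreservation was tested against the fresh cells of the same dissociation, so that the cryopreserved and the methanol-fixed cells of a dissociation share their fresh controls. According to the study's methods the stored cells were aliquots of the dissociated suspensions. The labels do not give which stored and fresh libraries came from the same suspension, so the tests treat them as unpaired. In cold-dissociated C57BL/6J cells 1 of 20 pairs was called, against 3.67% of 28327 pairs higher and 3.3% lower. Sgk1 in monocyte-like barcodes stood at 108, 154 and 267 CPM after cryopreservation and at 0, 27.3 and 90.4 CPM in fresh cells (2.04 ± 0.61, adjusted p = 0.0491). The call was lost without cryopreserved replicate 2 (2.11, adjusted p = 0.119) or 3 (1.64, adjusted p = 0.149) and without fresh replicate 2 (1.70, adjusted p = 0.269), and also with likely doublets removed (1.90, adjusted p = 0.113) or RLE size factors (2.03, adjusted p = 0.0540). Endothelial markers summed to 36.4 to 60.3 CPM in the fresh monocyte-like libraries, with 6 of the 11 markers (Cdh5, Emcn, Egfl7, Ehd3, Tie1 and Ptprb) at 0, and to 334 to 463 CPM after cryopreservation, with all 11 detected. Endothelial cell-like barcodes hold the most Sgk1, and the part of their RNA in this call was not tested. None of the channel genes was called, and Scnn1a in principal cell-like barcodes was 213 ± 80.5 against 205 ± 36.0 CPM (0.13 ± 0.26, adjusted p = 0.875).

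In warm-dissociated C57BL/6J cells 2 of 15 pairs were called, against 5.29% of 18787 pairs higher and 3.91% lower. Sgk1 in macrophage-like barcodes rose from 36.5, 46.6 and 48.7 CPM to 121, 140 and 98.6 CPM (1.44 ± 0.29, adjusted p = 0.00199). Endothelial markers in the same barcodes summed to 18.3 to 77.6 CPM in fresh cells, with Cdh5 at 0, and to 178 to 671 CPM after cryopreservation, and their part was not tested. Hsd11b2 in principal cell-like barcodes fell from 3977, 3439 and 3176 CPM to 1400, 1529 and 1800 CPM (−0.97 ± 0.17, adjusted p = 0.000737). Scnn1b (335 ± 56.1 against 528 ± 7.98 CPM, −0.48 ± 0.20, adjusted p = 0.145) and Scnn1g (170 ± 54.1 against 280 ± 25.9, −0.60 ± 0.26, adjusted p = 0.187) were below the fresh libraries without overlap and did not pass the test. The principal cell-like share of barcodes was 5.30 to 28.0% after cryopreservation against 0.954 to 1.09% in the fresh cells. Type A markers, 9 of 9 with a UMI, summed to 161 to 398 CPM in the fresh and 1743 to 3112 CPM in the cryopreserved principal cell-like libraries. Endothelial markers summed to 21.5 to 102 CPM, with Ptprb at 0, and to 360 to 681 CPM. The part of other cell types in the lower Hsd11b2 was not tested.

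In Balb/c female cells 1 of 37 pairs was called, against 1.44% of 70438 pairs higher and 2.51% lower. Scnn1a in type B-like barcodes stood at 272, 284 and 143 CPM after cryopreservation and at 113, 130 and 175 CPM in fresh cells (1.07 ± 0.24, adjusted p = 0.00537), with overlapping libraries. It was not called without cryopreserved replicate 1 (0.91, adjusted p = 0.0631). Principal cell markers, 9 of 9 with a UMI, summed to 1035 to 2835 CPM in the same cryopreserved and to 1400 to 1764 CPM in the fresh type B-like libraries, which overlapped. Hsd11b2 (196 to 699 against 37.6 to 131 CPM), Scnn1b (41.9 to 148 against 9.39 to 16.4) and Scnn1g (26.2 to 71.1 against 3.76 to 16.4) were above the fresh type B-like libraries without overlap. They were not among the called pairs, and the fresh libraries held 13 Scnn1b and 7 Scnn1g UMIs. The part of RNA from other cells was not tested. Hsd11b2 in principal cell-like barcodes was 3547 ± 312 against 3614 ± 603 CPM (0.14 ± 0.11, adjusted p = 0.596), and Scnn1a 227 ± 60.2 against 351 ± 69.8 CPM (−0.44 ± 0.18, adjusted p = 0.228). On library totals alone as the scale, the latter was called lower (−0.62, adjusted p = 0.0332), beside the higher call in type B-like barcodes.

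Methanol fixation of cold-dissociated cells gave the most calls of the storage protocols. Of 20 pairs 6 were called, 1 higher and 5 lower, against 9.5% of 35072 pairs over all genes higher and 10.7% lower. In principal cell-like barcodes Scnn1b stood at 289, 263 and 160 CPM against 605, 450 and 283 CPM in fresh cells (−1.09 ± 0.23, adjusted p = 0.00207), Scnn1a at 167, 87.5 and 143 against 247, 188 and 181 CPM (−0.93 ± 0.27, adjusted p = 0.0175), and Nedd4l at 33.4, 25 and 25.2 against 107, 69.5 and 56.5 CPM (−1.69 ± 0.44, adjusted p = 0.0111). Hsd11b2 fell from 2862 ± 884 to 1866 ± 415 CPM (−0.82 ± 0.18, adjusted p = 0.00468). The Scnn1a and Nedd4l libraries did not overlap, while those of Scnn1b and Hsd11b2 did. Scnn1g did not move with the other 2 subunits, at 240 ± 52.6 against 217 ± 32.0 CPM (−0.08 ± 0.22, adjusted p = 0.834), so that the gamma share of ENaC UMIs was 39.3% ± 1.73 after fixation against 25.6% ± 3.78. On library totals alone as the scale, 2 pairs were higher and 3 lower, and Hsd11b2 (−0.62, adjusted p = 0.0662) and Scnn1a (−0.73, adjusted p = 0.0809) in principal cell-like barcodes were not called. Without fixed replicate 2, Scnn1a (−0.59, adjusted p = 0.215) and Nedd4l (−1.57, adjusted p = 0.0696) were no longer called. By the Wald test of DESeq2, Scnn1a (−0.93, adjusted p = 0.0661) and Nedd4l (−1.72, adjusted p = 0.0525) were not called. With edgeR on the coarser clustering at resolution 1, Scnn1a (−1.04, adjusted p = 0.0543) and Scnn1b (−1.04, adjusted p = 0.0638) were not called.

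Hsd11b2 went in opposite directions in other classes of the fixed cells. In CNT-like barcodes it fell from 457 ± 171 to 275 ± 46.0 CPM (−1.15 ± 0.24, adjusted p = 0.00283). In proximal tubule-like barcodes it rose from 2.42, 2.69 and 2.71 CPM to 10.1, 14.5 and 12.2 CPM (2.03 ± 0.28, adjusted p = 0.00032). Principal cell markers, 9 of 9 with a UMI, summed to 176 to 278 CPM in the fixed and 107 to 137 CPM in the fresh proximal tubule-like libraries. Proximal tubule markers, 14 of 14 with a UMI, summed to 3261 to 3896 CPM in the fixed and 874 to 1815 CPM in the fresh principal cell-like libraries. The part of RNA from other cells in these differences was not tested. In warm-dissociated cells edgeR called 0 of 9 pairs after methanol, against 5.77% of 19968 pairs higher and 6.83% lower, with 3 pairs at an unadjusted p under 0.05 and 1 pair called by DESeq2. The nearest were Hsd11b2 in CNT-like (−1.05 ± 0.34, adjusted p = 0.0504) and proximal tubule-like barcodes (1.52 ± 0.55, adjusted p = 0.0753).

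Nuclei against cells gave the most calls of all comparisons, over all genes as among the members, so the number of calls is not particular to the members. Nr3c2 and Nedd4l were higher in nuclei, Hsd11b2 and Scnn1a were lower in principal cell-like nuclei of females, and whether Scnn1b and Scnn1g were called there depended on the scale. In the Balb/c males 31 of 42 pairs were called, 22 higher and 9 lower, against 42.8% of 47377 pairs over all genes called higher and 31.2% lower. In the Balb/c females 41 of 60 were called, 27 higher and 14 lower, against 40.8% of 93254 pairs higher and 39.3% lower. The members were thus called higher in 52.4% and lower in 21.4% of their pairs in males, and in 45.0% and 23.3% in females.

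Nr3c2 in female principal cell-like barcodes stood at 53.0, 66.5 and 51.5 CPM in cells and at 2121, 2038 and 2198 CPM in 3x500g nuclei (4.59 ± 0.17, adjusted p = 2.01e-21). Nedd4l stood at 78.4, 60.3 and 68.1 against 2113, 1632 and 1994 CPM (4.17 ± 0.17, adjusted p = 5.22e-20). In males Nr3c2 was 46.5 ± 16.1 CPM in cells and 1081 ± 10.7 in nuclei (4.42 ± 0.33), and Nedd4l 94.7 ± 93.9 and 1018 ± 114 (3.64 ± 0.31). Neither gene's nuclei overlapped its cells. Both were called higher in every class in which they were tested, 12 classes each in females and 9 and 11 in males. In classes with few such UMIs in cells the genes could pass the filter on low counts through the nuclei alone, and that count then says little.

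Hsd11b2 in female principal cell-like barcodes stood at 3526, 3060 and 4256 CPM in cells against 472, 611 and 398 CPM in nuclei (−3.48 ± 0.16, adjusted p = 1.38e-18), and in males at 4261, 3194 and 2950 against 866, 801 and 794 CPM (−2.07 ± 0.24, adjusted p = 1.22e-17). It was lower in 6 of 8 classes tested in females and 4 of 6 in males. The largest of these was in male type A-like barcodes, at 1584, 1013 and 1228 CPM in cells and 14.2, 15.4 and 12.0 CPM in nuclei (−6.07 ± 0.49). Principal cell markers, 9 of 9 with a UMI, summed to 4400 to 6627 CPM in the same type A-like cells and to 1988 to 2849 CPM in the nuclei, and the part of principal cell RNA in that difference was not tested. Sgk1 was lower in endothelial cell-like nuclei of both sexes, at 219, 152 and 163 CPM in nuclei against 383, 472 and 595 CPM in cells of females (−2.02 ± 0.17, adjusted p = 1.72e-07) and at 128, 84.1 and 89.6 against 543, 577 and 584 CPM in males (−2.47 ± 0.31, adjusted p = 2.01e-08). In male principal cell-like barcodes Sgk1 was also called lower (−0.66 ± 0.31, adjusted p = 0.0434), with overlapping libraries, and without replicate 2 of the cells the sign turned (0.05, adjusted p = 0.932). It was not called without nuclei replicate 1 (−0.25, adjusted p = 0.461) or 3 (−0.42, adjusted p = 0.279) either.

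Among the channel subunits, Scnn1a in female principal cell-like barcodes stood at 338, 289 and 427 CPM in cells and 193, 207 and 135 CPM in nuclei (−1.57 ± 0.16, adjusted p = 1.91e-10). Scnn1b stood at 437, 351 and 513 against 865, 844 and 671 CPM (0.27 ± 0.14, adjusted p = 0.0832) and Scnn1g at 266, 283 and 291 against 631, 443 and 457 CPM (0.26 ± 0.15, adjusted p = 0.104). In CPM the nuclei of both were above the cells without overlap, while the fold changes on the TMM scale did not pass the test. The deposited female tables list 14310 genes for fresh cells, 12270 to 12738 for cryopreserved cells and 18679 for nuclei, the last without mitochondrial genes. The cells were summed here over the 11947 genes common to the 6 fresh and cryopreserved tables. Among these, 13 mitochondrial genes held 31.5 to 35% of the UMIs, over all 6 libraries. The 11704 shared genes held 64.0 to 67.2% of the cells' UMIs and 94.2 to 94.9% of the nuclei's, and the part of the gene lists in the difference between the scales was not tested. From the TMM scale to library totals alone, the median over all genes moved from 0.10 to 0.71 in female principal cell-like and from 0.09 to 1.16 in CNT-like barcodes, and the calls of the members from 27 higher and 14 lower to 38 and 7. On totals, Scnn1b (0.87) and Scnn1g (0.86) were called higher in female principal cell-like nuclei, and Scnn1a stayed lower there (−0.97) and in DCT-like nuclei (−0.48). In female CNT-like nuclei Scnn1a was lower by the TMM scale (−1.14 ± 0.13) and not by totals (−0.07, adjusted p = 0.600). In male principal cell-like barcodes, where both tables list the same 16524 genes, Scnn1a (−0.47 ± 0.27, adjusted p = 0.102), Scnn1b (0.42 ± 0.23, adjusted p = 0.0804) and Scnn1g (0.35 ± 0.25, adjusted p = 0.198) did not pass the test. Among other male classes Scnn1a was called in 3 and Scnn1b in 2. The lower calls of Scnn1a in male thick ascending limb-like and type B-like nuclei were lost by edgeR with RLE size factors (−0.75, adjusted p = 0.0551, and −0.61, adjusted p = 0.0507). Both were also lost with doublets removed or without the filter on low counts.

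Apart from Sgk1, the order of the members between nuclei and cells in female principal cell-like barcodes was that of their spans on the genome, except that Nr3c2 and Nedd4l, and the 2 neighbours Scnn1b and Scnn1g, did not differ beyond their errors. Over all genes tested in female principal cell-like barcodes the median log2 fold change was −2.39 for 1838 genes spanning under 10 kb, −0.18 for 4112 genes of 10 to 50 kb, 1.24 for 1416 genes of 50 to 100 kb, 2.21 for 1071 genes of 100 to 300 kb and 3.60 for 227 genes of 300 kb or more. The male medians were −2.19, −0.15, 1.43, 2.38 and 4.17. Scnn1g (34063 bases, 0.26), Nr3c2 (346930 bases, 4.59) and Nedd4l (333347 bases, 4.17) lay above the median of their span class in females, while Hsd11b2 (5243 bases, −3.48), Scnn1a (30673 bases, −1.57), Scnn1b (53691 bases, 0.27) and Sgk1 (117720 bases, −1.05) lay below it. In males Hsd11b2 (−2.07) lay above the median of its class and Nedd4l (3.64) below it. The Sgk1 span is that from its first start, and from its last RefSeq start to the end of the gene there are 5238 bases, so its place among the span classes depends on the start. Introns were counted in nuclei and not in cells, and this is a description over genes, which are not independent replicates.

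**Figure D5:**
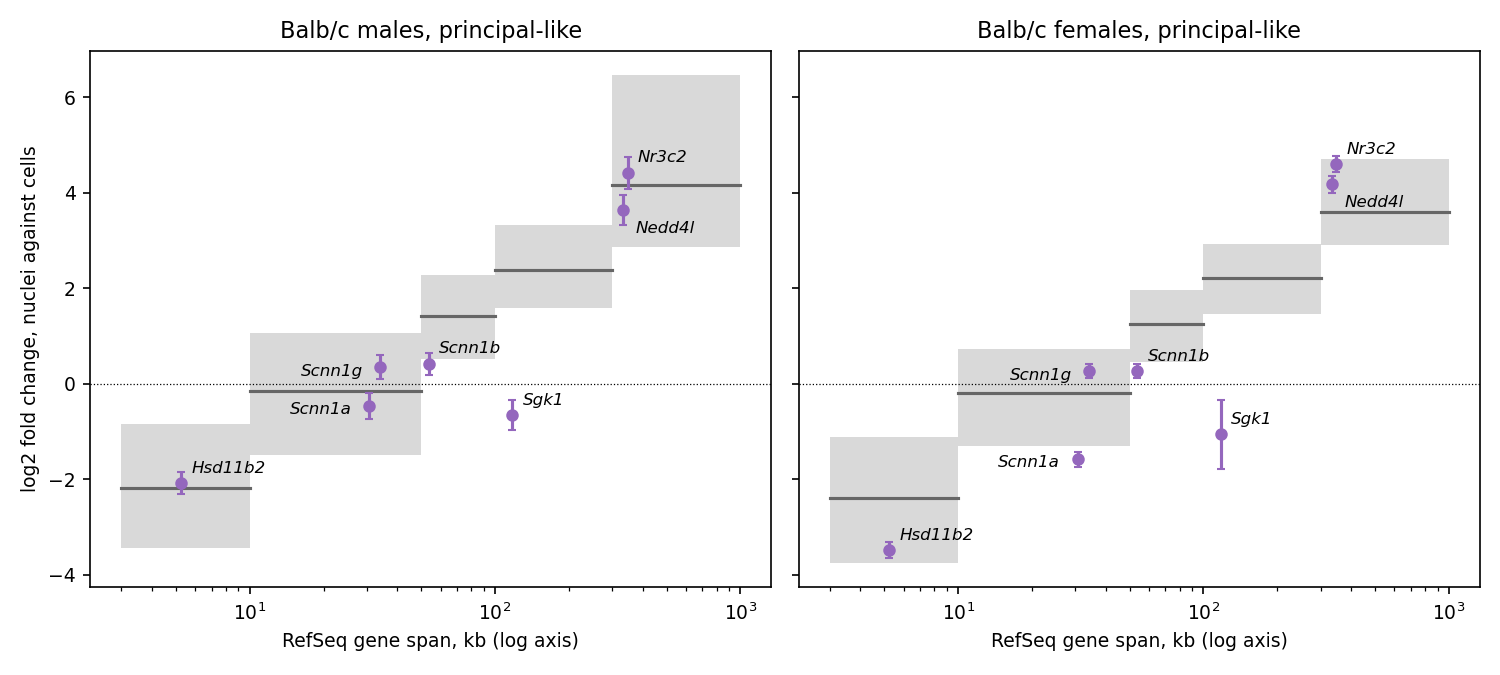
Log2 fold change of nuclei against cells in principal cell-like barcodes (vertical axis) against RefSeq gene span in kb (log axis), in Balb/c males (left) and females (right). Gray boxes give the quartiles and dark lines the median of all genes tested in a span class, and purple points give the 7 members with their SE. Hsd11b2, the shortest member, lies lowest (−3.48 in females), and Nr3c2 and Nedd4l, the longest, highest (4.59 and 4.17).

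The 1x2000g and sucrose nuclei were each set against the same 3x500g nuclei and so share that control. In 1x2000g nuclei 15 of 79 pairs were called, 3 higher and 12 lower, against 9.02% of 120094 pairs higher and 4.71% lower. In sucrose nuclei 28 of 78 were called, 7 higher and 21 lower, against 10.7% of 115859 pairs higher and 8.47% lower. Hsd11b2 made up all of the higher calls and Nr3c2, Nedd4l and Scnn1b all of the lower ones. Scnn1a, Scnn1g and Sgk1 were called in neither.

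In sucrose nuclei Hsd11b2 was higher in 7 of 11 classes tested. In the principal cell-like class it stood at 567, 910 and 807 CPM against 472, 611 and 398 CPM (0.75 ± 0.17, adjusted p = 0.0102), with overlapping libraries, and it was not called without sucrose replicate 3 (0.69, adjusted p = 0.0524). In CNT-like nuclei it was 470 ± 43.2 against 303 ± 31.5 CPM (0.73 ± 0.10, adjusted p = 2.27e-05). Nr3c2 was lower in 9 of 16 classes, by 0.38 to 0.74 on the log2 scale, and Nedd4l in 11 of 16, by 0.45 to 0.98. In principal cell-like nuclei Nedd4l stood at 1217, 983 and 1215 against 2113, 1632 and 1994 CPM (−0.63 ± 0.13, adjusted p = 0.00361). In proximal tubule-like nuclei Hsd11b2 was higher in sucrose nuclei (14.6 ± 0.772 against 6.74 ± 2.79 CPM, 1.14 ± 0.23, adjusted p = 0.00423). The principal cell markers, 9 of 9 with a UMI, summed there to 391 to 419 CPM in sucrose and 406 to 484 CPM in 3x500g nuclei. The part of principal cell RNA in the Hsd11b2 difference was not tested.

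In 1x2000g nuclei Hsd11b2 was higher in the CNT-like (0.71 ± 0.10, adjusted p = 0.000116), proximal tubule-like (0.85 ± 0.24, adjusted p = 0.0361) and thick ascending limb-like classes (1.05 ± 0.28, adjusted p = 0.0213). Nr3c2 was lower in 5 classes and Nedd4l in 5. Scnn1b in principal cell-like nuclei stood at 476, 519 and 504 CPM against 865, 844 and 671 CPM (−0.59 ± 0.11, adjusted p = 0.000809). Without 1x2000g replicate 3 only 7 of the pairs were called. Sgk1 in proximal tubule-like nuclei was 62.1 CPM in replicate 1 against 8.75 and 9.96 in replicates 2 and 3 of the 3x500g nuclei, and 75.4 CPM in replicate 1 against 9.82 and 13.1 in the 1x2000g nuclei, while the sucrose nuclei stood at 10.2, 15.0 and 11.5 CPM. A single library of each sorted preparation was thus far above the others. The 17 stress genes, chosen in the C57BL/6J samples, were called higher in 55 of 166 pairs of 1x2000g nuclei (median 0.64) and in 61 of 153 pairs of sucrose nuclei (median 0.78), and Sgk1 in 0 of 12 and 0 of 10 classes by edgeR.

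The genes around ENaC were followed in 3 lists made by hand, and each count stands beside the share called over all genes of the same comparison. The lists were chosen with earlier results of these data known, so the counts are a description and not independent evidence. In the warm bulk suspensions that share was 5.57% higher and 3.55% lower. Of 23 genes that act on ENaC trafficking or cleavage or on its kinase and corticosteroid signals, called regulators here, 4 were higher (17.4%) and 0 lower, with a median log2 fold change of 0.00. The 4 were the protease gene St14, which activates the channel-cleaving protease prostasin (0.76 ± 0.09, adjusted p = 3.08e-05), the SGK1 substrate Ndrg2 (0.44), the kinase gene Wnk1 (0.34) and Tsc22d3, a glucocorticoid-induced gene (0.33). Of 14 genes induced by corticosteroids, 4 of them also in the regulator list, 7 were higher (50.0%) and 0 lower (median 0.44). These included the clock gene Per1 (1.95 ± 0.14, adjusted p = 2.42e-06), Lcn2 (1.65) and the metallothionein genes Mt2 (0.80) and Mt1 (0.63). Of 16 tested genes of sodium, potassium and water transport in the distal nephron, 5 were higher (31.2%) and 0 lower (median 0.57), with the vasopressin receptor gene Avpr2 first (1.29 ± 0.16) and Kcnj10, Kcnj1 and Bsnd at 0.56 to 0.58.

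Within fresh warm-dissociated cells, where 2.6% of all pairs were higher and 1.67% lower, 3 of 45 pairs of the corticosteroid-induced list were higher and 1 lower (6.67% and 2.22%, median 0.20). Tsc22d3 rose in proximal tubule-like barcodes (0.97 ± 0.18, adjusted p = 0.0103), the class in which Sgk1 rose, and the glucocorticoid receptor gene Nr3c1 fell there (−0.49, adjusted p = 0.0423). Of the ENaC regulators 1 of 98 pairs was higher and 1 lower (1.02% each, median −0.05), and of the transport genes 3 of 78 were higher and 3 lower (3.85% each). In intact kidney against suspension, with 12.1% of all genes higher and 7.99% lower, 3 regulators were higher and 2 lower of 23 (median −0.02), 0 of the 14 corticosteroid-induced genes were called, and 2 transport genes were higher and 3 lower of 16. The highest regulator there was Hsd11b1, which regenerates active glucocorticoid (2.73 ± 0.28, adjusted p = 0.000401).

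The share of all pairs called after cryopreservation was 5.29% higher and 3.91% lower in warm-dissociated C57BL/6J cells, 3.67% and 3.3% in cold-dissociated C57BL/6J cells and 1.44% and 2.51% in Balb/c cells. Of the regulator pairs 6 of 65 were higher (9.23%) and 1 lower in warm-dissociated C57BL/6J cells (median 0.17, against −0.02 over all genes), 1 of 90 higher and 0 lower in cold-dissociated C57BL/6J cells, and 5 of 176 higher and 1 lower in Balb/c cells. Corticosteroid-induced genes were higher in 7 of 41 pairs (17.1%) and lower in 0 in the warm-dissociated cells (median 0.35). Tsc22d3 rose there in the macrophage-like class (1.17), as Sgk1 did. The summed endothelial markers of that class were higher as well, and their part was not tested. Corticosteroid-induced genes were higher in 3 of 39 pairs and lower in 1 in cold-dissociated C57BL/6J cells, and higher in 0 and lower in 2 of 67 pairs in Balb/c cells. Transport genes were lower in 14 of 74 pairs (18.9%) of the cold C57BL/6J cells, 9 of 61 (14.8%) of the warm C57BL/6J cells and 20 of 110 (18.2%) of the Balb/c cells, and higher in 1, 4 and 7, while most of their pairs were not called.

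After methanol fixation 9.5% of all pairs were higher and 10.7% lower in cold-dissociated cells, and 5.77% and 6.83% in warm-dissociated cells. In cold-dissociated cells 0 of 100 regulator pairs were higher and 8 lower (8.0%, median −0.25, against 0.03 over all genes), and in warm-dissociated cells 1 of 55 higher and 6 lower (10.9%, median −0.30). The corticosteroid-induced genes went both ways there, with 5 of 51 pairs higher (9.8%) and 3 lower (5.88%) in cold-dissociated and 2 of 33 higher and 2 lower (6.06% each) in warm-dissociated cells. The transport genes also went both ways, with 18 of 93 higher (19.4%) and 14 lower (15.1%) in cold-dissociated and 9 of 49 higher (18.4%) and 12 lower (24.5%) in warm-dissociated cells.

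Nuclei against cells had 40.8% of all pairs higher and 39.3% lower in females, and 42.8% and 31.2% in males. The regulators went both ways, with 110 of 220 pairs higher (50.0%) and 70 lower (31.8%) in females (median 0.47, against 0.09 over all genes) and 58 of 131 higher (44.3%) and 37 lower (28.2%) in males (median 0.57, against 0.47). Of the corticosteroid-induced pairs 44 of 102 were higher (43.1%) and 31 lower (30.4%) in females, and 23 of 52 higher (44.2%) and 21 lower (40.4%) in males, so that the shares higher were near those of all genes. The transport genes were lower in 75 of 126 pairs (59.5%) and higher in 31 (24.6%) in females (median −1.16), and lower in 56 of 112 (50.0%) and higher in 31 (27.7%) in males (median −0.75). In female principal cell-like nuclei the water channel gene Aqp3 (−3.78) and the sodium pump regulator Fxyd4 (−3.74) were lower, as was Hsd11b2 (−3.48). In sucrose nuclei, beside 10.7% of all pairs higher and 8.47% lower, 44 of 260 regulator pairs were lower (16.9%) and 2 higher (median −0.19), 13 of 119 corticosteroid-induced pairs lower (10.9%) and 3 higher, and 30 of 171 transport pairs higher (17.5%) and 23 lower (13.5%). In 1x2000g nuclei, beside 9.02% higher and 4.71% lower, 7 of 270 regulator pairs were higher (2.59%) and 12 lower (4.44%), 3 of 124 corticosteroid-induced pairs higher (2.42%) and 4 lower (3.23%), and 36 of 175 transport pairs higher (20.6%) and 11 lower (6.29%, median 0.27).

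The genes most like each member in their pattern over classes were sought in the fresh cold-dissociated C57BL/6J cells and the 3x500g nuclei, by Pearson's r of log2(CPM + 1) over 16 classes each and among 10669 genes. Scnn1b and Scnn1g were close to each other (r = 0.938 in cells and 0.930 in nuclei). Hsd11b2 was like A930017K11Rik (0.925 and 0.856), Scnn1g (0.944 and 0.832) and the water channel gene Aqp2 (0.898 and 0.876). Scnn1a was instead like the transcription factor gene Tfap2a (0.904 and 0.886), and Nr3c2 like Mecomos (0.901 and 0.838). The genes most like Sgk1 by the mean of both values were Plaur (0.661 and 0.884), Hacd4 (0.686 and 0.856) and Camkk2 (0.748 and 0.781), and Nedd4l was like Met (0.908 and 0.795). Between Sgk1 and the other members r ran from −0.01 (Nedd4l) to 0.337 (Scnn1g) in cells and from near 0 (Scnn1a) to 0.577 (Scnn1g) in nuclei. The points are classes of the same libraries and share their depth.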

How the data were processed

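The authors aligned 10x reads with Cell Ranger 2.1.1 to mm10 and bulk reads with STAR 2.6.1a to GRCm38, per the submitters' processing notes, and deposited raw counts, of UMIs for each gene and barcode and of reads for each gene (featureCounts). Reads in introns were counted in nuclei only. The authors removed barcodes with few genes or UMIs or a high mitochondrial share, rare genes, and the mitochondrial genes of nuclei. The strand setting of the bulk counts is not given in the sources used here.

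The counts as deposited were analysed with Python 3.11.15 and R 4.3.3. Barcodes were clustered in 5 sets on 2000 variable genes, leaving out the 7 members and the 17 stress genes, with 30 principal components, 20 neighbors and the Leiden method (leidenalg 0.10.2) at resolution 2. A class name needed 3 markers or more with a fold of 1.5 and a UMI in a share of 0.1 of the cluster's barcodes. Doublets were marked and kept. UMIs were summed per library and class with at least 10 barcodes and compared by edgeR 4.0.16 (quasi-likelihood, TMM, filterByExpr), as were bulk counts, with Benjamini-Hochberg adjustment and a threshold of 0.05. A class was tested with at least 2 libraries per group. The test scripts were checked on made-up counts with known changes. DESeq2 1.42.0, RLE factors, no filter, resolution 1, removal of doublets, a log2 fold threshold of 1 in bulk and leaving out each library were alternatives, and library totals as the scale were added after the data were seen. Subunit shares needed at least 20 ENaC UMIs, and likeness used classes with at least 50 barcodes and genes of at least 10 CPM. The members and lists were chosen with earlier results of these data known. Named were the members, up to 5 called genes of each list with the largest fold change, Fos, Dusp1 and the 3 genes most like each member. Some genes that this rule takes are not reported here.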

Additional observations from a re-analysis of the deposited data

Results flagged for a closer look

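In the fit on all libraries, the warm against cold difference of Sgk1 was called different between the proximal tubule-like and principal cell-like classes of fresh C57BL/6J cells. It was larger in proximal tubule-like than in principal cell-like barcodes by 2.46 ± 0.55 on the log2 scale (edgeR's quasi-likelihood test with the library as a block, adjusted p = 0.0181), with warm above cold in 3 of 3 proximal tubule-like libraries. Without a single library the difference ran from 1.68 (without warm replicate 2, adjusted p = 0.720) to 3.08, and it did not pass the threshold without warm replicate 3 (adjusted p = 0.0862), cold replicate 2 (adjusted p = 0.0654) or cold replicate 3 (adjusted p = 0.201) either. Cold replicate 3 was the library with the highest principal cell-like Sgk1 (543 CPM). The warm principal cell-like libraries stood at 391, 131 and 107 CPM. Sgk1 had a single estimate of spread for all 12 classes in the joint fit. The p-value therefore does not measure the wide spread of the principal cell-like class by itself.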

How the results depend on the processing

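No paired analysis was possible because the replicate numbers used here follow the order of deposit, and the labels do not give which libraries came from the same animal or suspension. Of 137 called values of single genes and classes, the call and direction were kept in 129 cases under DESeq2 and the call was lost in 7, in 133 and 4 under RLE, 118 and 4 at resolution 1, 116 and 9 without doublets, 130 and 6 without a filter, 125 and 9 with library totals, and 722 and 94 when libraries were left out in turn; the other cases gave no test or turned sign. Signs turned in 3 cases: Sgk1 in male principal cell-like nuclei without replicate 2 of the cells (0.049, in a range of −1.15 to 0.049 over the libraries left out), and, with library totals, Scnn1a in female thick ascending limb-like (0.16) and type B-like nuclei (0.077). Counts of called pairs moved beyond 1.5 times as follows, and the cause was not tested except where fewer genes qualify by construction. A log2 fold threshold of 1 left 1 gene for bulk warm against cold and 0 for intact kidney against suspension. DESeq2 called 2 pairs for cryopreserved Balb/c cells, 1 for fresh warm against cold and 1 for methanol in warm cells. No filter gave 7 for cryopreserved Balb/c cells, 6 for cryopreserved warm cells and 1 for methanol in warm cells. RLE gave 0 for cryopreserved cold C57BL/6J cells and 1 for methanol in warm cells, removal of doublets 0 and 1, resolution 1 gave 3 for methanol in warm cells, and library totals gave 2 for cryopreserved Balb/c cells. With library totals, female nuclei had 38 pairs higher and 7 lower, against 27 and 14 with TMM. Leaving out 1 library gave 4 to 7 genes for bulk warm against cold, 4 to 5 for intact kidney, 0 to 3 pairs for fresh warm against cold, 0 to 2 for cryopreserved cold C57BL/6J, 2 for cryopreserved warm and 1 to 4 for cryopreserved Balb/c cells, 4 to 8 for methanol in cold and 0 to 3 in warm cells, 28 to 33 for male and 39 to 44 for female nuclei against cells, 7 to 17 for 1x2000g and 20 to 30 for sucrose nuclei, and 0 to 1 class for the Sgk1 difference. Depth limited Nr3c2 in cells, with 15 UMIs in the principal cell-like barcodes of the fresh cold-dissociated C57BL/6J cells.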
